A study of Mus musculus with 12 samples.

Results

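The genes described here encode the protein-digesting enzymes of the lysosome, the proton pump that acidifies it, and its main membrane glycoproteins. They were taken by a rule on names in the array annotation, which uses no difference between groups but was chosen with earlier results of these data known. The rule took every gene whose only symbol was Cts plus one letter, or began with Atp6v or Atp6ap, together with Lamp1 and Lamp2. It found 45 of the 22180 genes measured, 18 cathepsins, 8 genes of the membrane part of the pump (V0), 14 of its cytosolic part (V1), 3 with names of pump accessory proteins, and 2 membrane glycoproteins. One of the V1 group, Atp6v1fnb, is named for being the neighbour of Atp6v1f and is not a pump subunit.

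The lysosome breaks down proteins, lipids and sugars that reach it from the cell surface or by autophagy. Its enzymes work in acid, which the pump (V-ATPase) maintains: the V1 part splits ATP in the cytosol, and the V0 part carries protons through the membrane. In the liver both hepatocytes and macrophages depend on lysosomes, hepatocytes for autophagy and the turnover of lipid droplets, macrophages for digesting what they engulf.

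Liver RNA of male C57BL/6 mice was measured, with 1 mouse on each array and 3 mice in each group. The groups were AHNAK KO mice on a high-fat diet (HFD, 60% fat), AHNAK KO mice on regular chow, wild-type (WT) mice on HFD, and WT mice on chow, each fed for 8 weeks. The labels give neither the age of the mice nor the part of Ahnak that was deleted. Signals of Ahnak were 6.46 to 6.62 in KO on HFD against 6.74 to 7.26 in WT on HFD, and 6.38 to 6.74 in KO on chow against 6.50 to 6.83 in WT on chow, so the genotypes did not overlap on HFD and did on chow, where this signal does not check the labels. All values are log2 signals as deposited, so a difference of 1 is a doubling. The 3 WT livers on HFD stood apart from the other 9 on the first principal component of all genes, with scores of 30.0 to 32.3 against -18.5 to -3.95. All 8 hepatocyte markers were well above background, with a mean log2 signal over the list of 13.27 to 13.43 on every array. A gene is called near background when its mean over the 12 arrays was under 5.61, the 95th percentile of the means of 1105 olfactory receptor genes, which have no known role in liver.

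Of the 45 genes, 34 were above background. Ctsk, with a mean of 5.611, fell just short of the level of 5.613. It was under the level on 1 of 3 arrays in WT on HFD and on 2 of 3 in each other group. The 11 near background were Ctsg, a protease of neutrophil granules, Ctsk, the collagen-degrading cathepsin of osteoclasts, the rodent placental cathepsins Ctsj, Ctsm, Ctsq and Ctsr, Atp6v0a4 and Atp6v1g3, pump subunits of kidney intercalated cells, Atp6v1c2, Atp6v1fnb and Atp6ap1l. None of these 11 passed the test in the reported fit of the 5 comparisons, and Atp6v1fnb passed between KO and WT on HFD without KO HFD 2, with an adjusted p = 0.0343 (limma with Benjamini-Hochberg adjustment over all 22180 genes, called at an adjusted p under 0.05).

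Many lysosomal genes carry in their promoters a CLEAR element, a form of the E-box bound by TFEB and its relatives, which drive lysosome formation. Promoters from RefSeq (GRCm38.p6, 250 bases before to 50 after the annotated start) were in hand for 34 of the 45 genes. The core E-box CACGTG, which reads the same on both strands, was found for 9 of these 34 genes (26.5%) and for 8.09% of all 27025 genes with a promoter in the table. Its longer form TCACGTGA, which contains the core and also reads the same on both strands, was found for 5 of the 34 (14.7%), namely Ctsa, Ctsd, Atp6v0d1, Atp6v0e and Atp6v1a, and for 1.125% of all genes. A match is a run of letters, not a shown binding site. Lamp1 is printed because it fell in KO on HFD and holds 4 core E-boxes. The other sequences show the same letters in genes that did not pass between KO and WT on HFD. The core was also found for Ctsl, which rose in KO on HFD, and for Ctsf, which fell on HFD in WT. These are not printed. Each runs 5′ to 3′ along the gene and ends at the base before an annotated start, with the motif in capitals. Ctsa has 2 promoters in the table, and the one printed was picked because it holds the motif, which the other lacks.
Lamp1 (chr8:13159041-13159160, + strand): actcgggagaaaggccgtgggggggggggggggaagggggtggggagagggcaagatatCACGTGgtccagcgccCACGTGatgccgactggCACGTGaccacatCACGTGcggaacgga
Ctsd (chr7:142387828-142387947, - strand): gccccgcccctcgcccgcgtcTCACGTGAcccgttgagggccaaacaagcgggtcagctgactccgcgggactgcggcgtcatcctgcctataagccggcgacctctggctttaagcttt
Ctsa (chr2:164833653-164833772, + strand): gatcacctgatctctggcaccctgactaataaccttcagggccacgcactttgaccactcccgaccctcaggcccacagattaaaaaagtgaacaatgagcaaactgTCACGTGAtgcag
Atp6v1a (chr16:44139260-44139409, - strand): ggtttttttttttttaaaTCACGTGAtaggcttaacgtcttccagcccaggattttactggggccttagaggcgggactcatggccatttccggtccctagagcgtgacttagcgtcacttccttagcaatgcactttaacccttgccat
Atp6v0b (chr4:117887330-117887449, - strand): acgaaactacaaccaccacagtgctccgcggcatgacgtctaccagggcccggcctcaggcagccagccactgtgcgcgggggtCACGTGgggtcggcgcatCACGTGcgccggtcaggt

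KO livers were first set against WT livers on HFD. Of the 45 genes 1 rose in KO, 5 fell and 39 did not pass, or 13.3% called, beside 10.5% of all genes (3.89% higher and 6.62% lower). The gene that rose was Ctsl, and those that fell were Ctso, Ctsb, Lamp1, Atp6v0d2 and Atp6v0a2. Over all genes 862 were higher and 1469 lower, and 545 and 1937 with each array centred on its median, under which the members split 1 and 7. No KO array overlapped a WT array for 7 members that were higher in KO and 12 that were lower, 15.6% and 26.7% of the 45, beside 13% and 15.6% of all genes. An unadjusted p under 0.05 was found for 14 members, beside 23.8% of all genes. The median log2 fold change was -0.07 over the members and 0.0011 over all genes. The number of called members was 2 without WT HFD 3, where 6.79% of all genes were called, 3 without WT HFD 1 (7.07% of all genes) and 3 without KO HFD 2 (7.12%). In the fit of only genes above the median signal Ctsc, Ctsd and Atp6v0a1 gained a call, where 26.3% of the genes fitted were called.

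**Figure D1:**
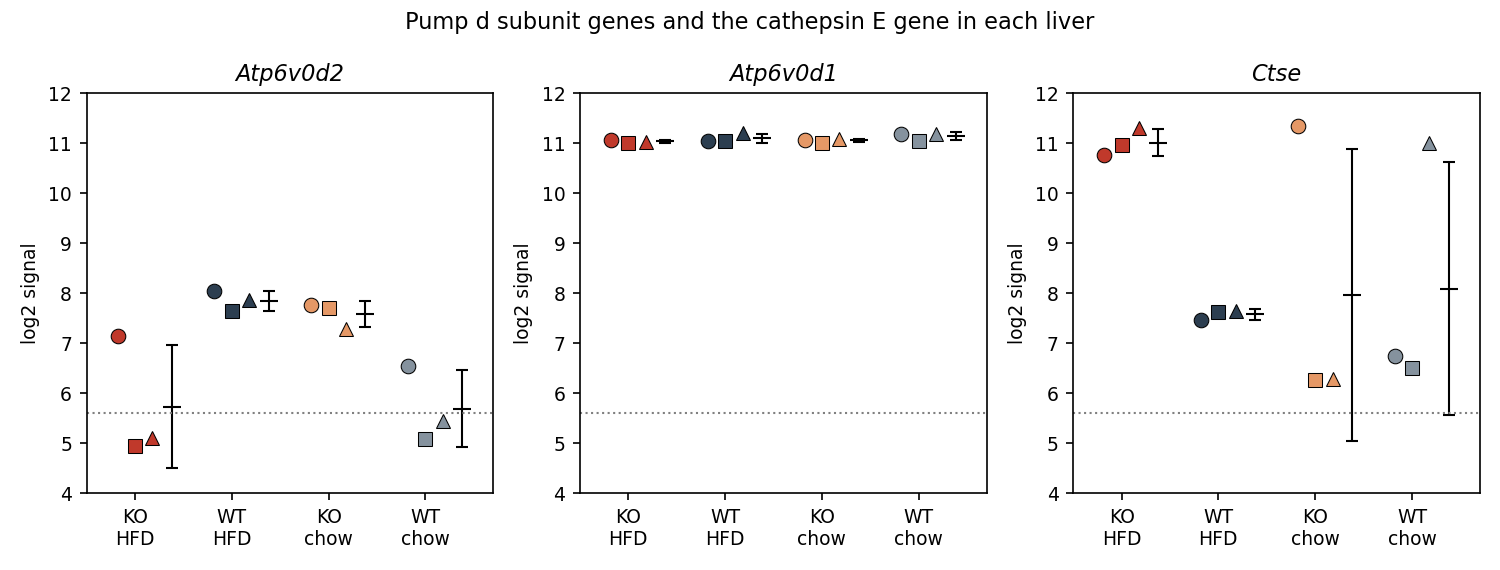
Log2 signal of Atp6v0d2, its sister subunit gene Atp6v0d1 and Ctse in each of the 12 livers, by genotype and diet (circle, square and triangle are replicates 1, 2 and 3; the black bar is the mean with its SD; the dotted line is the background level of 5.61). Atp6v0d2 was high in WT on HFD and KO on chow, Atp6v0d1 lay between 11.02 and 11.20 throughout, and Ctse split within both chow groups.

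Atp6v0d2 showed the widest difference among the called genes. It encodes the d2 form of the V0 subunit that joins the pump's stalk to its membrane ring, known from osteoclasts, macrophages and kidney. Log2 signals were 7.16, 4.94 and 5.10 in KO on HFD, against 8.04, 7.64 and 7.86 in WT on HFD. Both KO livers with the lower signals were under the background level, while KO HFD 1 lay 2.21 above the lowest of its group. The groups did not overlap, and the KO minus WT difference was -2.11 ± 0.50 (log2 fold change ± SE, limma adjusted p = 0.0181). With 2 of the 3 KO arrays on HFD under the background level, this size is limited by that level, and no fold is given. Without KO HFD 1, which leaves KO arrays under the level only, it was -2.82. The call was lost without KO HFD 2 (limma adjusted p = 0.0763), KO HFD 3 (0.07), WT HFD 1 (0.0628) or WT HFD 3 (0.0554).

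On chow the order of the genotypes was turned round. Atp6v0d2 read 7.76, 7.70 and 7.28 in KO on chow, against 6.55, 5.08 and 5.45 in WT on chow, where 2 of the 3 livers were under the background level. Every KO liver on chow lay above every WT liver on chow, and the difference of 1.89 ± 0.50 did not pass over all genes (limma adjusted p = 0.408). The interaction, the KO minus WT difference on HFD less that on chow, was -4.00 ± 0.71 (limma adjusted p = 0.0105), and it kept its call under all 19 alternatives run, between -4.71 and -3.60. Since 2 of 3 arrays were under the background level in KO on HFD and in WT on chow, these sizes, and those of each Atp6v0d2 difference against either group, are limited by that level. The sister gene Atp6v0d1, which encodes the d form found in most tissues, averaged 11.04 ± 0.03 (SD, n = 3) in KO on HFD, 11.06 ± 0.04 in KO on chow, 11.10 ± 0.09 in WT on HFD and 11.14 ± 0.08 in WT on chow. Its interaction was 0.03 ± 0.11 (limma adjusted p = 0.944).

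Ctse, the gene of the aspartic protease cathepsin E, known from stomach and immune cells, had the largest spread between mice of 1 group of all 22180 genes. Its within-group SD was 1.94, where the median over all genes was 0.15 and Atp6v0d2, with 0.74, ranked 26. Log2 signals of Ctse were 10.76, 10.97 and 11.30 in KO on HFD, against 7.46, 7.62 and 7.65 in WT on HFD. These groups did not overlap, and the spread within each was at most 0.54. On chow 1 liver of each genotype was high and the other two low: 11.34, 6.27 and 6.28 in KO, against 6.75, 6.51 and 11.01 in WT. The difference on HFD was 3.43 ± 1.29 (SE) and did not pass (limma adjusted p = 0.121) in the fit that takes 1 spread from all 4 groups. It passed when only the 6 HFD arrays were fitted (limma adjusted p = 3.52e-05) and when KO chow 1 was left out (0.0323). On chow the difference was -0.12 ± 1.29 (limma adjusted p = 0.991).

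The remaining cathepsins differed by less than 0.6 on the log2 scale. Ctso, a cysteine cathepsin whose substrates are little known, read 10.28, 10.20 and 10.27 in KO on HFD, against 10.78, 10.82 and 10.73 in WT on HFD. In KO on chow it read 10.19, 10.22 and 10.41, and in WT on chow 10.26, 10.24 and 10.19, so the WT livers on HFD alone were high. Ctso fell by 0.53 ± 0.08 in KO on HFD (limma adjusted p = 0.00153), a fold of 0.694, and passed under each of the 20 alternatives.

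Ctsl, a cysteine protease that does much of the bulk protein breakdown, went the other way. It read 12.72, 12.80 and 12.72 in KO on HFD, against 12.40, 12.36 and 12.31 in WT on HFD, with no overlap. The rise of 0.39 ± 0.08 (limma adjusted p = 0.0115) also passed under all 20 alternatives. Ctsl was thus higher in KO on the diet on which Ctsb, another abundant cysteine cathepsin, was lower.

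Ctsb read 12.73, 12.69 and 12.57 in KO on HFD, against 12.98, 12.92 and 12.94 in WT on HFD. The groups did not overlap, and Ctsb fell by 0.29 ± 0.08 (limma adjusted p = 0.0378). This call was lost in 7 of the 12 fits that left out 1 liver, without KO HFD 2 or 3, any WT liver on HFD, KO chow 1 or WT chow 2, with an adjusted p of up to 0.118, and with only the 6 HFD arrays (limma adjusted p = 0.104).

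For Ctsc, Ctsd and Ctss the KO and WT arrays on HFD did not overlap, and the test was not passed. The same held for Ctsa, Ctsh and Ctsw, whose smaller differences are given last. Ctsc, which activates the granule proteases of immune cells, stood at -0.48 ± 0.15 (limma adjusted p = 0.057). It passed in 9 of 20 alternatives, among them each array centred on its median (0.0277), trend and robust settings (0.0287) and without KO HFD 1 (0.0236). It did not pass without KO HFD 2 (0.162) or KO HFD 3 (0.171). Ctsd, the main aspartic protease of lysosomes, averaged 11.65 ± 0.01 (SD, n = 3) in KO on HFD and 11.87 ± 0.04 in WT on HFD, a difference of -0.22 ± 0.08 (SE, limma adjusted p = 0.0917). Ctsd passed in 4 of 20 alternatives, with adjusted p values from 0.0179 to 0.227 over the 20. Ctss, which trims the invariant chain of MHC class II molecules in antigen-presenting cells, stood at -0.31 ± 0.12 (limma adjusted p = 0.143). The serine carboxypeptidase gene Ctsa differed by -0.11 ± 0.08, the aminopeptidase gene Ctsh by -0.07 ± 0.07, the carboxypeptidase gene Ctsz by 0.01 ± 0.08, and Ctsw, known from T and NK cells, by -0.08 ± 0.12.

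**Figure D2:**
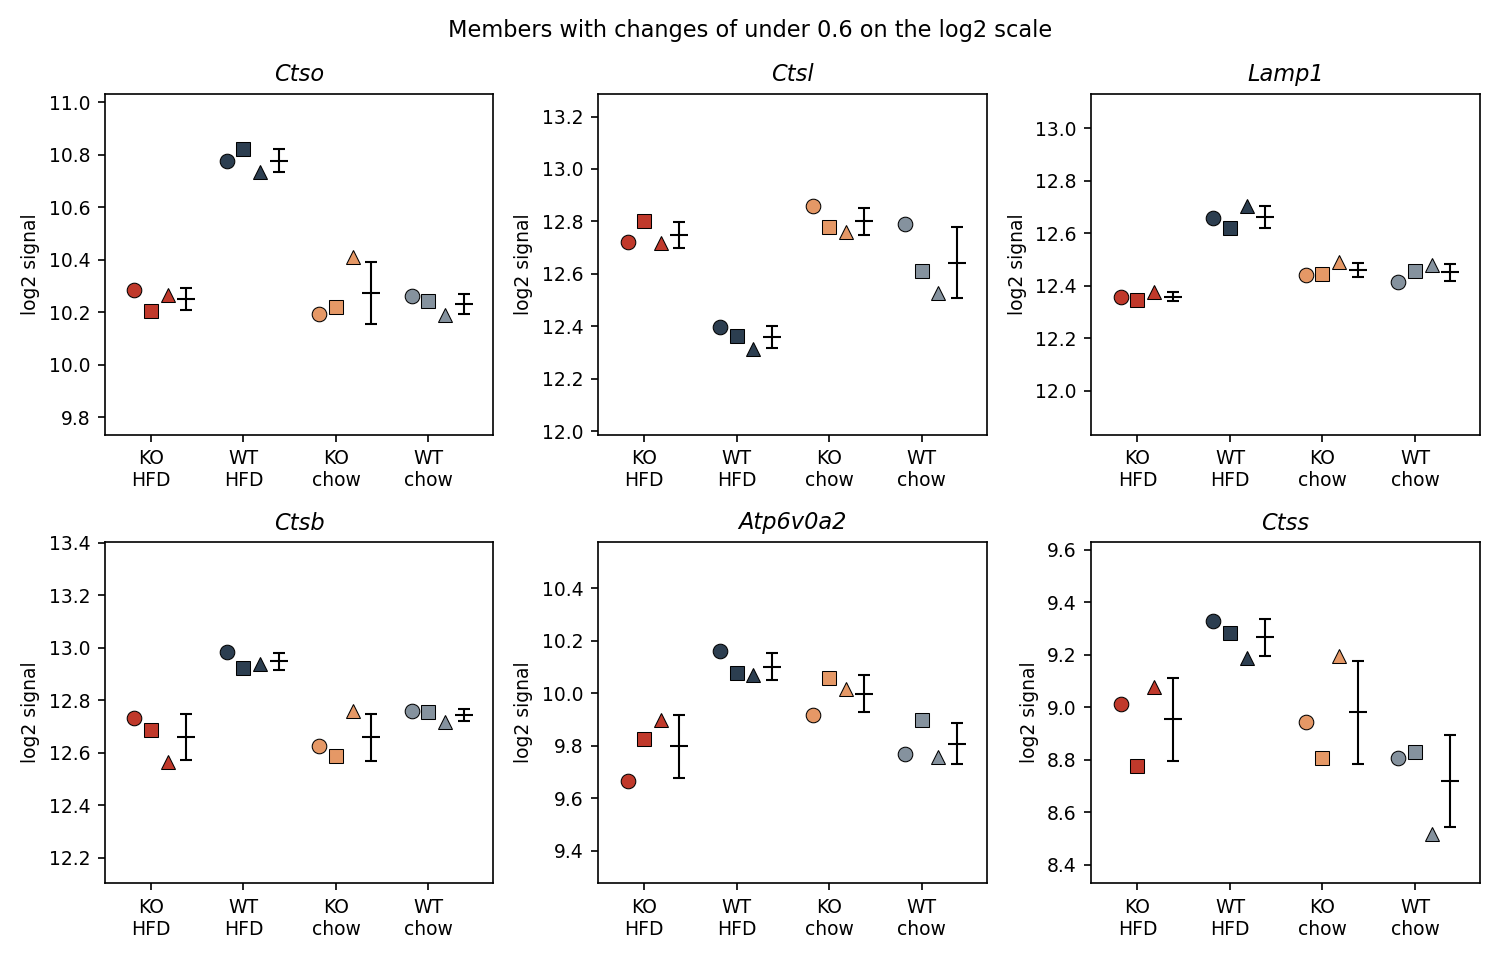
Log2 signal of 6 members in each liver, by genotype and diet, on axes of equal height that do not start at 0 (symbols as replicates 1, 2 and 3, black bars as mean and SD). The WT livers on HFD were the highest of the 12 for Ctso, Lamp1 and Ctsb and the lowest for Ctsl.

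The membrane glycoproteins LAMP1 and LAMP2 coat the inside of the lysosomal membrane. Lamp1 read 12.36, 12.34 and 12.38 in KO on HFD, against 12.66, 12.62 and 12.70 in WT on HFD, and 12.44, 12.44 and 12.49 in KO on chow against 12.42, 12.46 and 12.48 in WT on chow. It fell by 0.30 ± 0.07 in KO on HFD (limma adjusted p = 0.0156), a call lost without KO HFD 2 (0.0507), without WT HFD 3 (0.0614) and with only the HFD arrays (0.0727). Lamp2, which also takes part in chaperone-mediated autophagy, lay between 12.01 and 12.18 on all 12 arrays and differed by 0.04 ± 0.07 on HFD (limma adjusted p = 0.825).

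Of the 25 genes with pump names, 2 fell in KO on HFD, 0 rose and 23 did not pass, or 8%, beside 10.5% of all genes. Besides Atp6v0d2 the gene that fell was Atp6v0a2, which encodes the a2 form of the proton-carrying a subunit, known from Golgi and endosomes. It read 9.67, 9.83 and 9.90 in KO on HFD, against 10.16, 10.08 and 10.07 in WT on HFD, a difference of -0.30 ± 0.09 (limma adjusted p = 0.0434). The call held in 2 of the 12 fits without 1 liver, without KO HFD 3 or WT chow 2, and the adjusted p was 0.137 when WT HFD 1 was left out. It was also lost with quantile normalization (limma adjusted p = 0.0527) and with only the HFD arrays (0.109).

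The a1 form stood on the other side. Atp6v0a1 averaged 9.54 ± 0.10 (SD, n = 3) in KO on HFD and 9.20 ± 0.05 in WT on HFD, a difference of 0.34 ± 0.11 (SE, limma adjusted p = 0.0698), and passed among genes above the median signal (0.0289). The V0 genes Atp6v0b, Atp6v0d1, Atp6v0e and Atp6v0e2 lay between -0.20 and -0.06 and did not pass. Atp6v0c, the gene of the ring subunit, was not analysed here.

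None of the 14 V1 genes passed on HFD, and 3 had an unadjusted p under 0.05, beside 23.8% of all genes. Atp6v1a and Atp6v1b2, whose products form the ATP-splitting head, differed by -0.12 ± 0.11 and -0.04 ± 0.13. Atp6v1c1 stood at 0.19 ± 0.08 (limma adjusted p = 0.158) and Atp6v1d at -0.21 ± 0.08 (0.136), both without overlap between the groups. The third, Atp6v1fnb, was near background (0.31 ± 0.11, adjusted p = 0.0997). The accessory genes Atp6ap1 and Atp6ap2, which help to assemble the pump, differed by -0.08 ± 0.09 and 0.05 ± 0.09. Apart from Ctse, 27 members above background did not pass on HFD, and for 24 of them the 95% interval of the difference lay between -0.5 and 0.5.

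**Figure D3:**
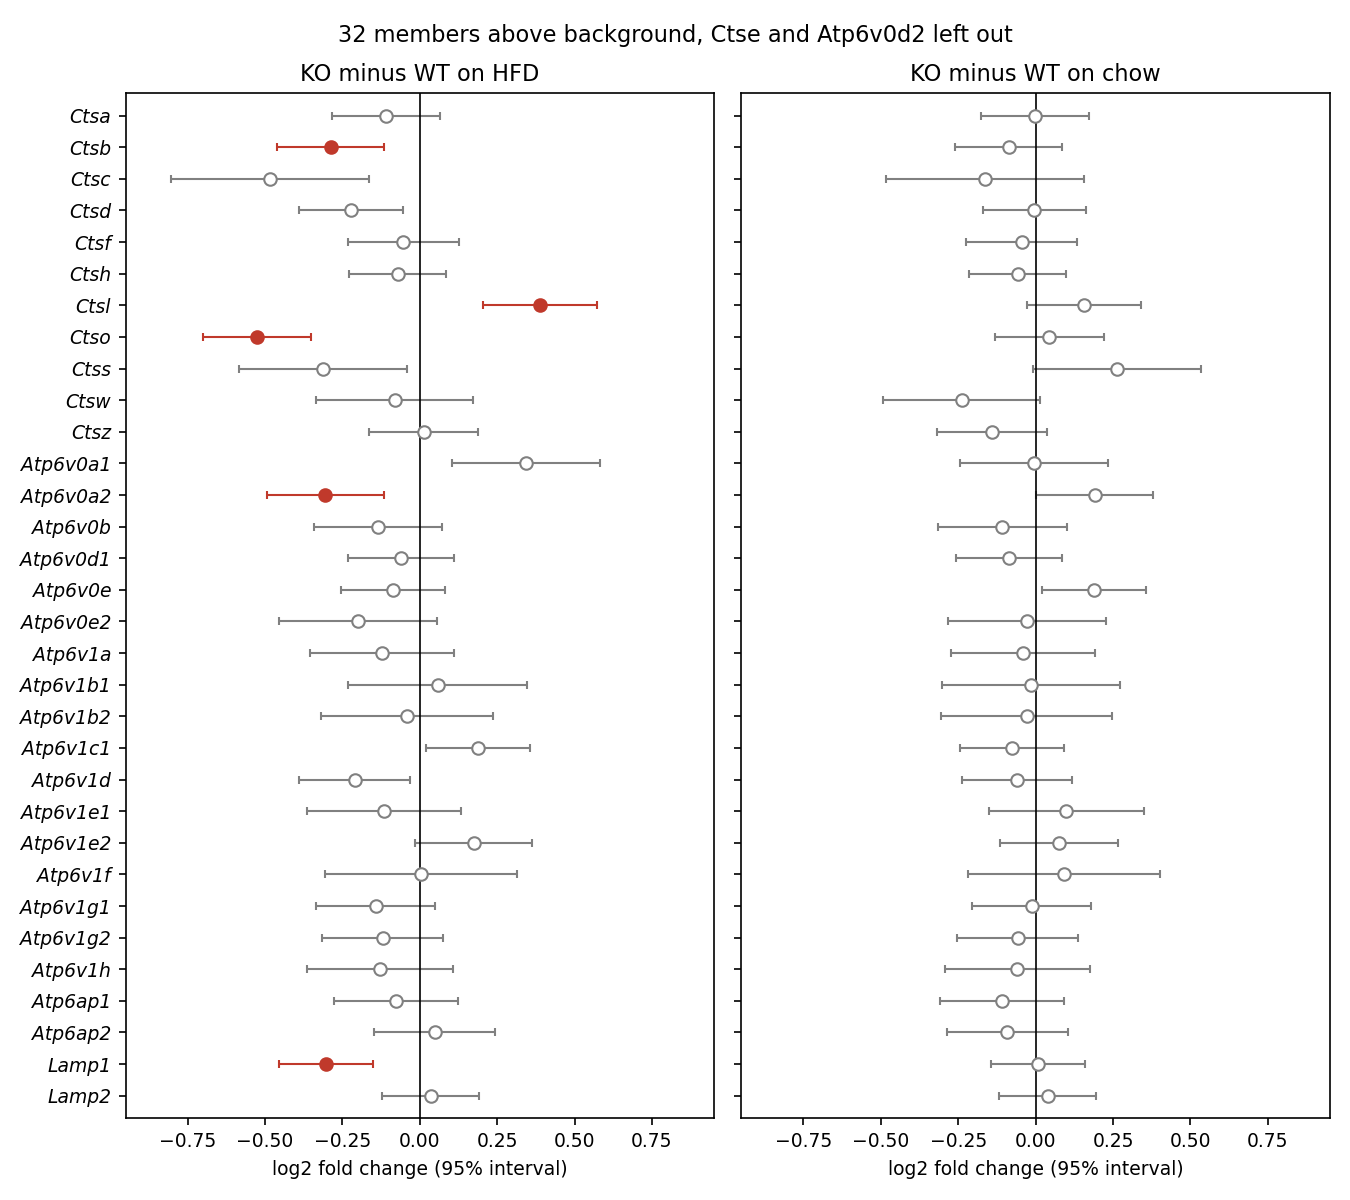
KO minus WT log2 fold change with its 95% interval for 32 members above background on HFD (left) and on chow (right), Ctse and Atp6v0d2 left out because their differences exceed the axis. Filled red points passed on HFD (Ctsb, Ctsl, Ctso, Atp6v0a2 and Lamp1), and no point passed on chow.

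On chow 0 of the 45 genes passed between KO and WT, beside 0.00902% of all genes (2 genes). KO and WT arrays did not overlap for 3 members higher in KO and 3 lower, beside 5.95% and 7.29% of all genes. An unadjusted p under 0.05 was found for 3 members by limma, beside 7.02% of all genes, all of them V0 genes that were higher in KO without overlap: Atp6v0d2, Atp6v0e (0.19 ± 0.08, adjusted p = 0.658) and Atp6v0a2 (0.19 ± 0.09, adjusted p = 0.698). All 18 cathepsins failed, with differences from -0.24 for Ctsw to 0.26 for Ctss. Apart from Ctse and Atp6v0d2, 31 of the 32 members above background had a 95% interval between -0.5 and 0.5.

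In WT mice HFD was set against chow. This comparison shares its WT HFD arrays with the one between KO and WT on HFD, so the values are not independent. Of the 45 genes 3 rose on HFD, 1 fell and 41 did not pass, or 8.89% called beside 6.96% of all genes (4.02% higher and 2.94% lower). The diets did not overlap for 10 members higher on HFD and 5 lower, beside 14.2% and 12.2% of all genes, and 11 members had an unadjusted p under 0.05, beside 20.6%. Ctso rose by 0.55 ± 0.08 (limma adjusted p = 0.00197) and passed under all 20 alternatives. Atp6v0d2 rose by 2.15 ± 0.50 (limma adjusted p = 0.0224), a call lost with trend and robust settings (0.0549) and without any WT liver but WT chow 1, with an adjusted p of up to 0.0827.

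Ctss also rose in WT on HFD. It read 9.33, 9.28 and 9.19 in WT on HFD, against 8.81, 8.83 and 8.52 in WT on chow, and the difference was 0.55 ± 0.12 (limma adjusted p = 0.0201). This call was lost without WT HFD 1 (0.072), WT HFD 2 (0.0665) or WT chow 3 (0.0835). Ctsf, a cysteine cathepsin, fell by 0.30 ± 0.08 with an adjusted p = 0.0497 in limma, a call that held in only 1 of the 12 fits without 1 liver, without WT HFD 3, and that was lost with each array centred on its median, which left 3 rises and 0 falls. The number called was 1 without WT HFD 1, WT HFD 2 or WT chow 3, and 2 without WT chow 2, where 4.22%, 3.88%, 3.67% and 5.94% of all genes were called. Not passing were Ctsl (-0.28 ± 0.08, adjusted p = 0.0658), Atp6v0a2 (0.29 ± 0.09, adjusted p = 0.0636), Atp6v0e (0.24 ± 0.08, adjusted p = 0.0921), Lamp1 (0.21 ± 0.07, adjusted p = 0.0973) and Ctsb (0.20 ± 0.08, adjusted p = 0.166).

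In KO mice 0 of the 45 genes passed between HFD and chow, beside 0.243% of all genes (0.0857% higher and 0.158% lower), and 7 had an unadjusted p under 0.05 by limma, beside 8.51%. The diets did not overlap for 2 members higher on HFD and 5 lower, beside 6.99% and 6.79% of all genes. Ctsf read 8.54, 8.56 and 8.58 in KO on HFD, against 8.86, 8.89 and 8.85 in KO on chow, a difference of -0.31 ± 0.08 (limma adjusted p = 0.237) close to the one in WT and without overlap. For Ctsf the interaction was -0.01 ± 0.12, with a 95% interval from -0.26 to 0.25. Atp6v0d2 stood at -1.85 ± 0.50 (limma adjusted p = 0.24) and passed only without KO HFD 1, at -2.56 (0.00918). Ctse stood at 3.05 ± 1.29 (limma adjusted p = 0.544), with overlap through KO chow 1.

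The interaction of genotype and diet was tested directly. It was called for 3 of the 45 genes, all lower, or 6.67% beside 3.53% of all genes (1.43% higher and 2.1% lower), and 9 had an unadjusted p under 0.05, beside 17.3%. After Atp6v0d2 came Ctso (-0.57 ± 0.11, limma adjusted p = 0.0184), whose call was lost without WT HFD 2 (0.0543) or WT chow 3 (0.0506). Atp6v0a2 (-0.50 ± 0.12, limma adjusted p = 0.047) kept its call in only 2 of the 12 fits without 1 liver, without KO HFD 3 or WT chow 2, with 0.119 when KO chow 2 was left out and 0.0513 with quantile normalization. Without WT HFD 2 or WT chow 3 a single member was called, beside 2% of all genes in either fit. Ctss (-0.58 ± 0.18, adjusted p = 0.103) and Lamp1 (-0.31 ± 0.10, adjusted p = 0.115) did not pass.

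**Figure D4:**
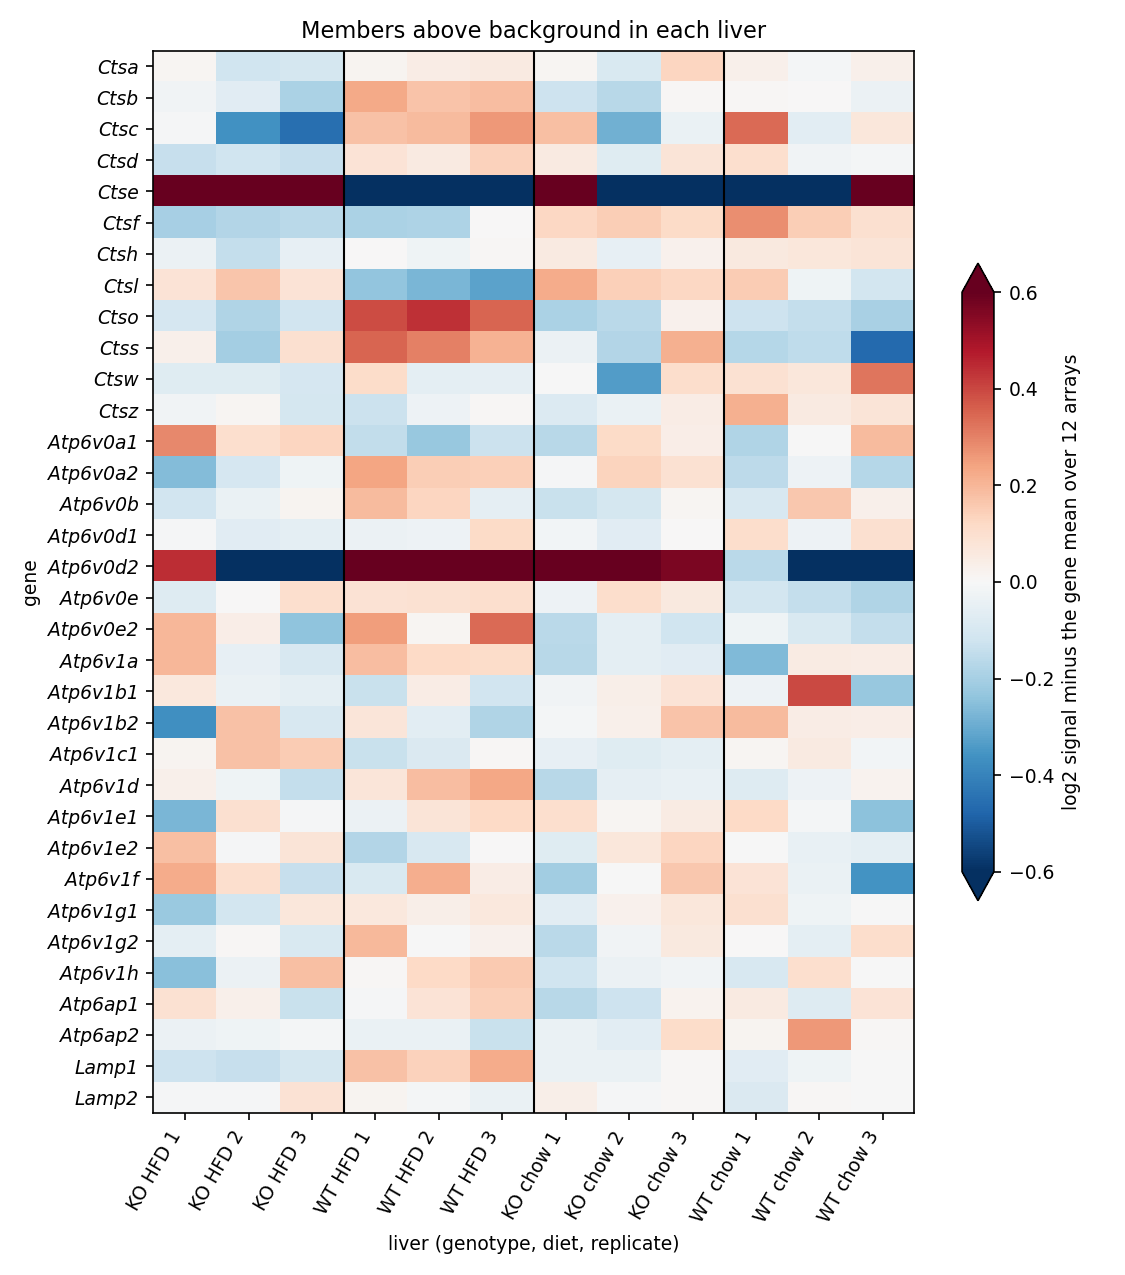
Log2 signal of the 34 members above background in each liver, minus the mean of the gene over the 12 arrays, with colours that end at -0.6 and 0.6. Most rows are pale in every group, the rows of Ctse and Atp6v0d2 run past the colour range, and Ctso stands out in the 3 WT livers on HFD.

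Other lysosomal genes were taken as lists chosen with earlier results of these data known. Of 32 hydrolases and their activators 2 rose in KO on HFD, 13 fell and 17 did not pass, or 46.9% called beside 10.5% of all genes. Their median was -0.21 on the log2 fold change scale. The 32 were all above background. In a separate fit of only the 11090 genes above the median signal, 26.3% of the genes fitted were called. That fit adjusts over fewer genes than the reported one, so its share and the 46.9% are not like for like. Hexa, a subunit of the enzyme that degrades GM2 ganglioside, fell by 0.88 ± 0.09 (limma adjusted p = 8.17e-05). Ppt1, which removes fatty acids from proteins, fell by 0.55 ± 0.07 and Acp5, an acid phosphatase gene of macrophages and osteoclasts, by 0.50 ± 0.09. Gaa, which degrades glycogen, rose by 0.58 ± 0.09. In WT on HFD against chow, 5 of these 32 rose and 1 fell, or 18.8% beside 6.96%, among them Hexa (0.50 ± 0.09) and Ppt1 (0.47 ± 0.07), while Gaa fell by 0.60 ± 0.09. In the separate fit of only genes above the median signal 20% were called in WT, which again is not like for like.

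Of 18 membrane proteins and transporters of the lysosome 1 rose and 6 fell in KO on HFD, or 38.9% called beside 10.5% of all genes, with a median of -0.20. The share in the separate fit of only genes above the median signal was 26.3%, here too not like for like. The cholesterol transfer genes went opposite ways: Npc2 fell by 0.43 ± 0.09 and Npc1 rose by 0.54 ± 0.12. Of 11 genes that deliver enzymes to the lysosome 0 rose and 2 fell (18.2%), Gnptab by 0.62 ± 0.10 and Gnptg by 0.34 ± 0.08, subunit genes of the enzyme that adds the mannose phosphate tag. Of 9 inhibitors of cysteine cathepsins, 6 of them near background, 1 fell, Cstb, by 0.45 ± 0.09. Of 9 genes of pump assembly 1 rose, Rogdi, by 0.44 ± 0.12. Each of these counts is 11.1% of its list, near the 10.5% of all genes, and is no result about the list. Of 15 regulators, including Tfeb, Tfe3 and Mtor, 0 passed by limma in KO on HFD, and the median was -0.19. An unadjusted p under 0.05 was found for 6 of the 15, beside 23.8% of all genes. On chow 0 genes of these 6 lists passed between KO and WT.

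Cathepsins and pump genes are expressed in macrophages as well as hepatocytes, and in whole liver fewer cells of a type and less RNA per cell cannot be told apart. Of 9 markers of recruited and lipid-associated macrophages 1 rose and 6 fell in KO on HFD, or 77.8% beside 10.5% of all genes, with a median log2 fold change of -0.70. The gene that rose was Fabp5, a fatty acid binding protein, with 9.76, 8.87 and 8.76 in KO on HFD against 6.42, 6.23 and 6.60 in WT on HFD. Fabp5 averaged 6.49 in KO on chow against 7.30 in WT on chow, and it enters the means of the list that follow. The mean log2 signal of the 9 markers per array was 6.74 to 6.80 in KO on HFD against 6.97 to 7.37 in WT on HFD, and 6.38 to 6.50 in KO on chow against 6.35 to 6.67 in WT on chow. Of these 9 markers 2 were near background. Of 12 Kupffer cell markers 0 rose and 1 fell (8.33%), Mpeg1, and their mean was 9.14 to 9.38 in KO on HFD against 9.37 to 9.79 in WT on HFD, and 9.06 to 9.43 in KO on chow against 9.04 to 9.35 in WT on chow. Of 5 stellate cell markers 0 rose and 3 fell (60%), with a mean of 8.52 to 8.67 in KO on HFD against 9.15 to 9.46 in WT on HFD, and 8.64 to 8.70 in KO on chow against 8.45 to 8.60 in WT on chow. The part of these cells in the values of Ctso, Ctsb, Ctss and Lamp1 was not tested.

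For Atp6v0d2 the markers of osteoclasts and fused macrophages are the nearest comparison. Of 6 such genes, 3 of them near background, 1 rose in KO on HFD, Ocstamp, by 0.84 ± 0.15, and 1 fell, Acp5. Their mean per array was 6.63 to 6.71 in KO on HFD against 6.51 to 6.62 in WT on HFD, and 6.66 to 6.69 in KO on chow against 6.54 to 6.72 in WT on chow. The part of these cells in the values of Atp6v0d2 was not tested. Of 3 markers of kidney intercalated cells, which use several pump isoforms, 0 passed by limma in KO on HFD. All 3 had an unadjusted p under 0.05, beside 23.8% of all genes. Of the 3, 2 were higher and 1 lower in KO on HFD, from -0.26 to 0.35, and 1 was near background. Their mean per array was 5.75 to 5.95 in KO on HFD against 5.62 to 5.81 in WT on HFD. Among the remaining lists 0 of 8 T and NK cell, 0 of 7 neutrophil and mast cell, 0 of 5 dendritic and B cell, 0 of 4 endothelial and 0 of 4 cholangiocyte markers passed between KO and WT on HFD by limma, with an unadjusted p under 0.05 for 2, 0, 0, 1 and 0 of them. Over all genes 23.8% had an unadjusted p under 0.05 in this comparison. Of the 8 hepatocyte markers 2 rose and 0 fell, or 25% beside 10.5% of all genes. Serpina1a averaged 12.01 in KO on HFD against 11.49 in WT on HFD, and Cps1 13.77 against 13.41.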

How the data were processed

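Liver RNA of 12 mice was measured, 1 array per mouse, with a biotin label per the labels. The deposited values are log2 signals for 41345 probe sets, and the submitters' processing notes name oligo as the tool. Its version and normalization are not given here, and the values were used as deposited.

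Of the probe sets 23521 carried 1 gene symbol in the array annotation, 1814 several and 16010 none here. Symbols were updated through gene numbers (23328 matched RefSeq, GRCm38.p6). A gene with several probe sets was represented by that with the highest mean. Among the members this touched Atp6v1b2 and Atp6v1g1, whose other probe sets were dimmer.

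All 4 groups were fitted together with limma 3.58.1 (R 4.3.3), for 5 comparisons over 22180 genes. The code was tested on simulated data. The number of arrays limits the precision. Nothing says that mice of a group came from separate litters, so p values measure the spread between these mice.

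Members could all be named; of other lists, up to 4 genes with the smallest p per comparison. Members and lists were chosen with earlier results of these data known. The alternatives were quantile normalization or median centring, array weights, trend and robust settings, a replicate block, averaging the probe sets of a gene, only brighter genes (above the median signal), only the arrays compared, and leaving out each array.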

Additional observations from a re-analysis of the deposited data

Results flagged for a closer look

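For 3 members the effect of genotype differed between the diets by the interaction test of limma. The values were -4.00 for Atp6v0d2, -0.57 for Ctso and -0.50 for Atp6v0a2 (log2 scale, KO minus WT on HFD less KO minus WT on chow). For Atp6v0d2 and Atp6v0a2 every KO liver lay below every WT liver on HFD and above every WT liver on chow.

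For 2 more members the arrays separated in opposite directions by diet, with an interaction that was tested and did not pass. Lamp1 was lower on HFD than on chow in every KO liver and higher on HFD in every WT liver (-0.31, limma adjusted p = 0.115). Atp6v1c1 was higher in every KO liver than in any WT liver on HFD and lower in every KO liver on chow, and its interaction was 0.26 (limma adjusted p = 0.231).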

How the results depend on the processing

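No called difference reversed under any alternative, and of 4390 member values recomputed 166 changed sign, all of them past the threshold in neither fit. Of the values, 66 lost and 32 gained a call. Leaving out 1 liver gave 2 to 6 called members for KO against WT on HFD (6.79% to 10.5% of all genes), 0 to 0 on chow (0% to 0.0225%), 1 to 4 for HFD against chow in WT (3.67% to 7.62%), 0 to 1 in KO (0.126% to 0.356%) and 1 to 3 for the interaction (1.95% to 3.24%). In WT on HFD against chow 4 members were called in the reported fit. With trend and robust settings 8 were called, beside 9.33% of all genes. Among genes above the median signal 8 were called, beside 20% of the 11090 genes fitted. The interaction had 5 among genes above the median signal against 3, where 12.6% of the genes fitted were called. With the replicate block 5, 0, 3, 0 and 2 members were called in the 5 comparisons, against 6, 0, 4, 0 and 3, and 9.35%, 0%, 5.82%, 0.18% and 2.76% of all genes. Same-numbered arrays of the groups compared correlated with r between -0.06 and 0.08 in their deviations from the group means, so the numbers were not taken to pair the mice. The causes of these shifts were not tested.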

Other observations

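The spread of Ctse between mice of 1 group was not shared by its neighbours on the chromosome. Among 10 measured genes, 5 on each side in RefSeq order, the within-group SD lay between 0.07 and 0.29, against 1.94 for Ctse. These neighbours were picked after the values of Ctse were seen. The genes next in rank by within-group SD were Mug2 (1.41), Cyp2b9 (1.41) and Saa2 (1.16).

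The 10 nearest measured neighbours of Atp6v0d2 had within-group SDs of 0.06 to 0.21, against 0.74 for Atp6v0d2 itself.

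Relatives outside the naming rule were looked at afterwards. The rodent placental cathepsin genes Cts3, Cts6, Cts7 and Cts8 and the related Ctsll3 were near background, with means over 12 arrays of 3.82, 3.21, 3.95, 4.19 and 4.73. Tcirg1, the gene of the a3 form of the pump's a subunit, averaged 8.72 in KO on HFD against 8.93 in WT on HFD. On chow it averaged 9.04 in KO against 9.08 in WT.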
